A study of Mus musculus with 12 samples.

Results

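Small leucine-rich proteoglycans (SLRPs) were followed in MC38 tumor cells exposed to the MEK inhibitor GDC-0623. The 9 genes were Ogn, Omd, Aspn, Fmod, Prelp, Dcn, Lum, Bgn and Podn, out of 18193 genes measured. They were chosen by family and with their measured differences between GDC-0623 and DMSO on these same arrays already known. The values below therefore describe the genes, and no p-value is given for them. Expression was measured on 12 Affymetrix arrays in 4 groups of 3, which the labels call biological replicates. The groups were 24 h GDC-0623 (100 nM), 24 h DMSO, 72 h GDC-0623 (100 nM) and 72 h DMSO. DMSO is the solvent of the inhibitor and served as its control. All groups were monolayers of the same mouse line, grown without other cell types, so they stand for 1 cell line and 1 dose. MC38 is a colon carcinoma line of C57BL/6 mice, and MEK is the kinase that activates ERK.

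SLRPs are secreted proteins whose core is a row of leucine-rich repeats, and many of them carry chondroitin, dermatan or keratan sulfate chains. They bind fibrillar collagens and influence how thick the fibrils grow, and several of them bind TGF-beta or Toll-like receptors. They are known from tendon, cartilage, bone, skin and cornea, where fibroblasts and related cells make them. By sequence, Dcn (decorin), Bgn (biglycan) and Aspn (asporin) form class I, and Fmod (fibromodulin), Lum (lumican), Prelp and Omd (osteomodulin) form class II. Ogn (osteoglycin, also called mimecan) belongs to class III and Podn (podocan) to class V. In the mouse assembly GRCm38.p6, Aspn, Omd and Ogn are direct neighbours on chromosome 13, Prelp and Fmod lie together on chromosome 1, and Dcn and Lum lie together on chromosome 10. Bgn lies on chromosome X and Podn on chromosome 4.

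Promoter windows from RefSeq (GRCm38.p6, 250 bases before to 50 bases after the gene start) were matched for 7 of the 9 genes, all except Dcn and Lum. The windows of the chromosome 13 neighbours and of Fmod are shown because each of these 4 genes had 1 of the 3 largest differences at 24 h or 72 h. All 4 genes lie on the plus strand, and capitals mark matches to TATAAA or GGAATG on either strand. The windows are chr13:49607765-49608064 for Ogn, chr13:49582212-49582511 for Omd, chr13:49544193-49544492 for Aspn and chr1:134037004-134037303 for Fmod.

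Ogn: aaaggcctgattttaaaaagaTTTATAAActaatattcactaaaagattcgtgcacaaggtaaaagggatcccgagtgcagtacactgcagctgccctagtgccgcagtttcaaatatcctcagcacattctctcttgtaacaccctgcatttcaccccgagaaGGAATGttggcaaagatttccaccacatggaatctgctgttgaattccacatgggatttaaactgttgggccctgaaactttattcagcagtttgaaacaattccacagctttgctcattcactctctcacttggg

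Omd: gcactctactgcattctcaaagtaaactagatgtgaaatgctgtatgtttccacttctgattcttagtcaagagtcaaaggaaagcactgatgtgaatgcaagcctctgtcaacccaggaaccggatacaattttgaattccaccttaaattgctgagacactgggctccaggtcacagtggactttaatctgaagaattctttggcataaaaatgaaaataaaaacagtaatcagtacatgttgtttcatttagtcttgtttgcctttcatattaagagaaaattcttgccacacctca

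Aspn: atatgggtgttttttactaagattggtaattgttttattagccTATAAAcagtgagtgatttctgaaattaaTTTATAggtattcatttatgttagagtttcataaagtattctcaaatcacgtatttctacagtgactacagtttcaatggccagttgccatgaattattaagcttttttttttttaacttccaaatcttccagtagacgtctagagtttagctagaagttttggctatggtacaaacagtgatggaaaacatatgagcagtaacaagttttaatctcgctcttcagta

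Fmod: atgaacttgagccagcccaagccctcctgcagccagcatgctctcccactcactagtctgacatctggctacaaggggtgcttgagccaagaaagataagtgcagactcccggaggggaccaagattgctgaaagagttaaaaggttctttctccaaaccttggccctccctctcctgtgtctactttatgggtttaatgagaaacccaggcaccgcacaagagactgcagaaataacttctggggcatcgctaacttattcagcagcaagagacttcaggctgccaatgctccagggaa

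The windows of the chromosome 13 genes were poor in G and C. The GC content was 42.3% for Ogn, 37.7% for Omd, 31% for Aspn and 51% for Fmod, against a median of 52.7% over 32851 promoter windows. These windows held 4, 1, 3 and 3 CpG dinucleotides in the same gene order, and the median window held 7. Both Podn windows were richer, with 77% and 63% GC and 41 and 7 CpG dinucleotides. Motifs were searched on both strands as TATAAA for the TATA box, as GGAATG for TEAD factors, as TGANTCA for AP-1, as CCGGAA for ETS factors, as CACGTG for the E-box, as TTCNNNGAA for STAT factors, as GTCTAGAC for the SMAD palindrome, and as the CArG box. The TATA letters occurred in the Ogn window at positions -229 and -227, which overlap, and in the Aspn window at -207 and -178. The TEAD letters occurred in the Ogn window at -86. No other match was found in the windows of the 7 genes, so those of Omd, Fmod, Prelp, Bgn and Podn held none of the 8 motifs. Of all windows, 13.6% held the TATA letters, 14.7% the TEAD letters, 7.81% AP-1, 14.9% ETS, 7.15% the E-box, 8.3% STAT, 0.213% the SMAD palindrome and 1.63% the CArG box. The longest run shared by Ogn and Omd was TTGAATTCCAC and that shared by Ogn and Fmod was TTATTCAGCAG, each 11 bases long, which were found in 4 and 6 of all windows. Fmod and Podn shared a run of 13 bases.

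Arrays of 1 group differed little for the typical probe set, whose standard deviation was 0.085 to 0.110 on the log2 scale in the 4 groups. Of the variance, 58.6% lay on a first component, where replicate 1 of GDC-0623 at 72 h had a score of 77.4, beyond replicates 2 and 3 with 44.8 and 49.8. Among all genes the drug comparison called 13.3% higher and 8.23% lower at 24 h, and 13.8% higher and 12.4% lower at 72 h (limma, Benjamini-Hochberg adjusted p under 0.05). When each array was instead shifted by its hybridization control probe sets, the median of all genes moved by 0.15 on the log2 scale at 24 h and by 0.01 at 72 h. Of the genes called at 24 h, 61.8% were higher with the deposited scaling and 89.1% with that shift. The values below keep the deposited scaling. Of 15 measured genes that report ERK output, 14 were lower with the inhibitor at 24 h and 12 at 72 h. At an unadjusted p under 0.05 none was higher, and with the replicate number as a block 1 was called higher at 72 h. Egr1, an immediate early gene induced by ERK, averaged 4.08 ± 0.25 with GDC-0623 and 8.98 ± 0.12 with DMSO at 24 h (SD, n = 3 each, adjusted p = 1.32e-07 by limma).

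Of the 9 SLRP genes, 8 were higher with GDC-0623 at 72 h and 7 at 24 h. The background over all genes was 13.8% called higher at 72 h and 13.3% at 24 h. The rule had used these comparisons, so nothing is read from the excess. No member was called lower at either time, where the background was 12.4% and 8.23%. Podn at both times and Lum at 24 h were not called. The median difference of the 9 genes was 3.71 on the log2 scale at 72 h and 0.76 at 24 h, against -0.03 at both times over all genes. All 3 GDC-0623 arrays lay above all 3 DMSO arrays for 8 members at 72 h and 7 members at 24 h, which was the case for 21.3% and 21.2% of all genes. In these cultures fewer expressing cells and less RNA per cell cannot be told apart. Group means below 5 were marked as background, since RMA gives no detection call, and 12 member group means fell there. With a threshold of 4 the number was 7. A threshold of 6 would add Ogn in DMSO at 24 h (5.68) and Prelp in GDC-0623 at 24 h (5.77). It would also add Bgn at 24 h in GDC-0623 (5.76) and DMSO (5.31). A fold change against a group in the background range may be understated.

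**Figure D1:**
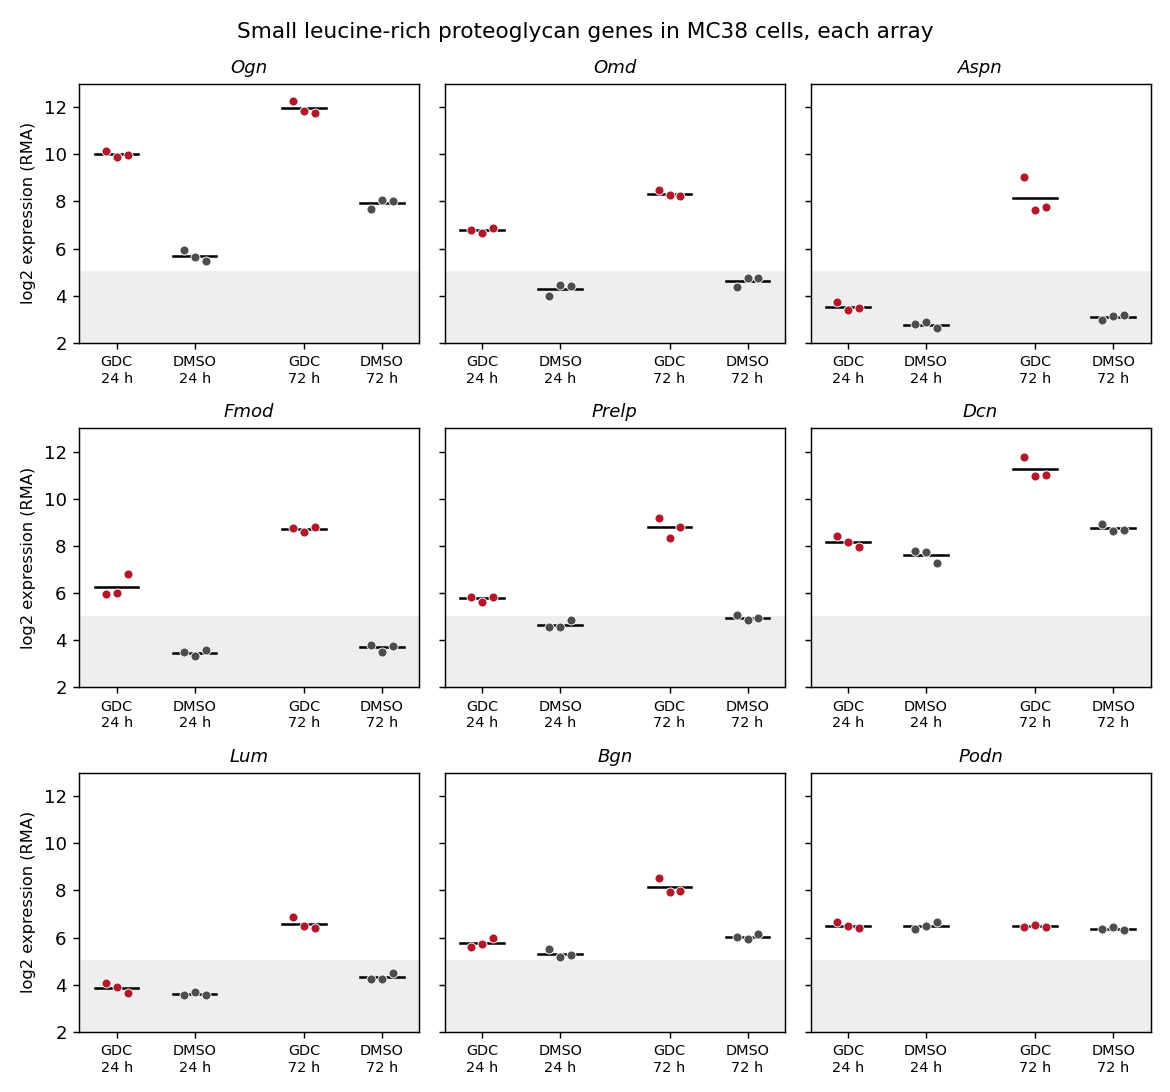
Log2 expression of each of the 9 SLRP genes (brightest probe set) on every array, in GDC-0623 (red) and DMSO (grey) at 24 h and 72 h, with the group mean as a bar and the background range below 5 shaded. The 3 arrays in GDC-0623 at 72 h lie above all other arrays for every gene except Podn, whose arrays all lie between 6.33 and 6.65.

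Ogn, which encodes a keratan sulfate proteoglycan first described in bone, had the largest difference at 24 h. Its values were 10.15, 9.90 and 9.98 in GDC-0623 and 5.93, 5.65 and 5.46 in DMSO at 24 h. At 72 h they were 12.27, 11.85 and 11.77 in GDC-0623 and 7.68, 8.08 and 8.03 in DMSO. No 2 of the 4 groups overlapped, and the DMSO arrays at 72 h lay above those at 24 h but below the GDC-0623 arrays of either time. The difference was 4.33 ± 0.12 at 24 h and 4.03 ± 0.15 at 72 h (log2, SE of the fit, 3 arrays per group), or 20.1-fold and 16.4-fold. The drug difference at 72 h minus that at 24 h was -0.30 ± 0.21 and was not called. Ogn was the only member called at both times whose difference was not called larger at 72 h.

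Omd, whose product binds hydroxyapatite and collagen in bone, was in the background range in DMSO and above it in GDC-0623. Its values were 6.78, 6.67 and 6.86 in GDC-0623 and 3.97, 4.45 and 4.43 in DMSO at 24 h. The values at 72 h were 8.48, 8.27 and 8.23 in GDC-0623 and 4.35, 4.75 and 4.74 in DMSO. The DMSO groups of both times overlapped, and both GDC-0623 groups lay apart from them and from each other. The difference was 2.49 ± 0.13 at 24 h and 3.71 ± 0.12 at 72 h, or 5.60-fold and 13.1-fold.

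Aspn, a class I member that binds TGF-beta and collagen, stayed in the background range in 3 of the 4 groups. Its values were 3.71, 3.38 and 3.47 in GDC-0623 and 2.80, 2.88 and 2.61 in DMSO at 24 h. After 72 h they stood at 9.03, 7.63 and 7.77 in GDC-0623 and 2.97, 3.15 and 3.18 in DMSO. The groups did not overlap at either time, but the step at 24 h lay within the background range. The difference was 0.76 ± 0.10 at 24 h and 5.04 ± 0.31 at 72 h, or 1.69-fold and 33-fold. The call at 24 h was lost with 1 fit over all 12 arrays (0.76 ± 0.26) and at a minimum fold of 2. The direct neighbours on chromosome 13 therefore shared a direction and differed in time course. From the Aspn to the Ogn end of the locus the differences at 24 h were 0.76, 2.49 and 4.33, and at 72 h they were 5.04, 3.71 and 4.03.

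Fmod, which binds collagen and takes part in its cross-linking, was in the background range in DMSO at both times. Its values were 5.98, 5.99 and 6.82 in GDC-0623 and 3.51, 3.31 and 3.58 in DMSO at 24 h. At 72 h they were 8.78, 8.59 and 8.79 in GDC-0623 and 3.81, 3.51 and 3.77 in DMSO. The DMSO groups overlapped each other, and the GDC-0623 arrays lay above them at both times. The difference was 2.80 ± 0.20 at 24 h and 5.02 ± 0.10 at 72 h, or 6.95-fold and 32.5-fold. These values come from the brightest of 6 Fmod probe sets, which is of a kind that can share probes with other transcripts. The single Fmod probe set not of that kind gave 1.56 ± 0.14 at 24 h and 3.67 ± 0.08 at 72 h, or 2.94-fold and 12.7-fold. The mean of all 6 gave 1.21 and 3.05, and each of them was called higher at both times.

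Prelp, whose product anchors basement membranes to connective tissue and which lies next to Fmod, was in the background range in DMSO at both times. Its values were 5.83, 5.64 and 5.84 in GDC-0623 and 4.54, 4.55 and 4.85 in DMSO at 24 h. The values at 72 h were 9.20, 8.34 and 8.82 in GDC-0623 and 5.08, 4.85 and 4.92 in DMSO. The GDC-0623 arrays lay above the DMSO arrays at both times, and the DMSO groups met at 4.85. The difference was 1.12 ± 0.10 at 24 h and 3.84 ± 0.19 at 72 h, or 2.18-fold and 14.3-fold. These values come from the brighter of 2 Prelp probe sets, also of a kind that can share probes with other transcripts. The other probe set gave -0.02 ± 0.07 at 24 h, which was not called, and 1.82 ± 0.17 at 72 h, or 3.54-fold. In DMSO its means were 5.09 and 5.08, just above the background range. The 24 h call of the brighter probe set was lost at a minimum fold of 2.

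Dcn, the best studied class I member, which binds collagen fibrils and several growth factors and their receptors, was above the background range in all 4 groups. Its values were 8.42, 8.15 and 7.94 in GDC-0623 and 7.79, 7.76 and 7.27 in DMSO at 24 h. After 72 h they were 11.78, 10.97 and 11.01 in GDC-0623 and 8.93, 8.65 and 8.69 in DMSO. The DMSO arrays at 72 h lay above the GDC-0623 arrays at 24 h, and no groups overlapped. The difference was 0.56 ± 0.16 at 24 h and 2.50 ± 0.20 at 72 h, or 1.48-fold and 5.64-fold. The call at 24 h was lost without DMSO replicate 3 (difference 0.40), GDC-0623 replicate 1 (0.44) or GDC-0623 replicate 2 (0.57), and the mean of both Dcn probe sets gave 0.22 and no call. It was also lost with 1 fit over all 12 arrays (0.56 ± 0.20), when quantile normalization was repeated (0.51 ± 0.16) and at a minimum fold of 2.

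Lum, a keratan sulfate proteoglycan of the cornea that shares a collagen binding site with Fmod, was in the background range in every group except GDC-0623 at 72 h. Its values were 4.05, 3.92 and 3.65 in GDC-0623 and 3.57, 3.68 and 3.56 in DMSO at 24 h. By 72 h they were 6.88, 6.51 and 6.39 in GDC-0623 and 4.22, 4.24 and 4.50 in DMSO. The groups overlapped at 24 h and lay apart at 72 h. The difference was 0.27 ± 0.10 at 24 h, which was not called, and 2.27 ± 0.13 at 72 h, or 4.83-fold. At 24 h it was called without GDC-0623 replicate 3 (0.38) and after the shift by hybridization controls (0.42 ± 0.13).

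Bgn, the class I member closest to Dcn, which can also signal through Toll-like receptors once released, moved mainly at 72 h. Its values were 5.58, 5.74 and 5.96 in GDC-0623 and 5.50, 5.19 and 5.24 in DMSO at 24 h. The 72 h arrays read 8.53, 7.92 and 7.97 in GDC-0623 and 6.01, 5.92 and 6.16 in DMSO. The gap between the groups at 24 h was narrow, and the GDC-0623 arrays at 24 h overlapped the DMSO arrays at 72 h. The difference was 0.45 ± 0.11 at 24 h and 2.11 ± 0.15 at 72 h, or 1.37-fold and 4.32-fold. The call at 24 h was lost with the replicate number as a block (0.45 ± 0.12), without DMSO replicate 2 (0.39) or 3 (0.42), and without GDC-0623 replicate 2 (0.46) or 3 (0.35). The mean of the 3 Bgn probe sets gave 0.17 at 24 h and no call, and the call was also lost with 1 fit over all 12 arrays (0.45 ± 0.15) and at a minimum fold of 2.

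Podn, the class V member, did not follow the others. Its values were 6.65, 6.47 and 6.40 in GDC-0623 and 6.38, 6.48 and 6.65 in DMSO at 24 h. In the 72 h arrays they were 6.45, 6.55 and 6.46 in GDC-0623 and 6.35, 6.45 and 6.33 in DMSO. All 4 groups overlapped. The difference was 0.00 ± 0.09 at 24 h and 0.11 ± 0.08 at 72 h, and neither was called.

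**Figure D2:**
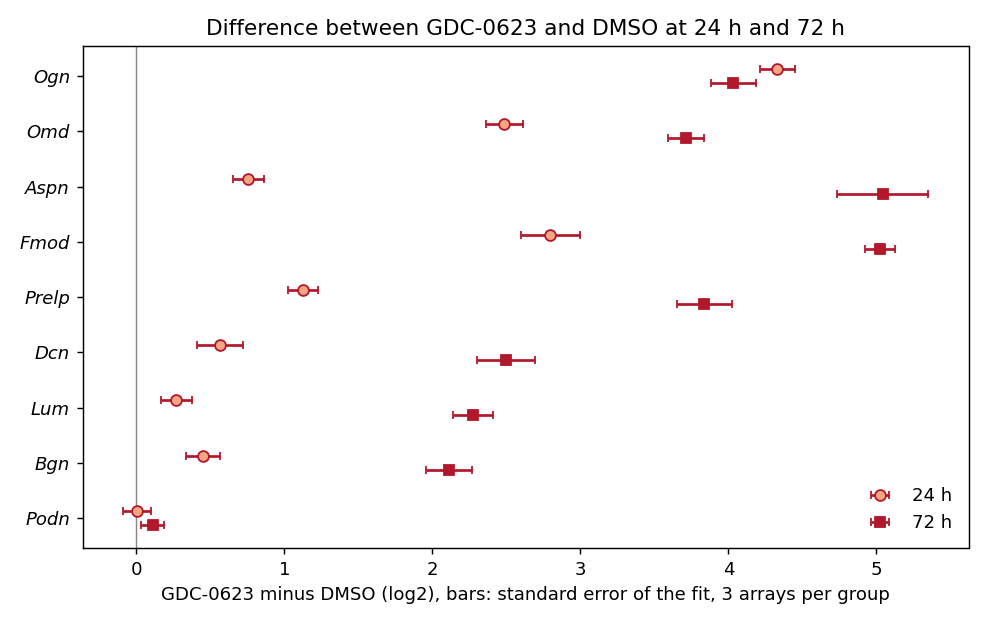
Difference between GDC-0623 and DMSO (log2) for each SLRP gene at 24 h (circles) and 72 h (squares), with the standard error of the fit over 3 arrays per group. Ogn has 4.33 at 24 h and 4.03 at 72 h, while Aspn has 0.76 at 24 h and 5.04 at 72 h.

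GDC-0623 replicate 1 at 72 h, which stood apart on the first component, was the highest of its group for 7 members, the exceptions being Fmod and Podn. The same array was the highest of its group for 94.9% of the 526 genes called over 2-fold higher at 72 h. Without it the difference at 72 h was 3.88 for Ogn, 3.64 for Omd, 4.60 for Aspn, 4.99 for Fmod and 3.63 for Prelp. It was 2.23 for Dcn, 2.13 for Lum, 1.92 for Bgn and 0.13 for Podn, and the same 8 members were called. The other 2 arrays of that group thus carried the difference for each of them. Aspn differed most between these arrays, with replicate 1 lying 1.26 above the next.

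The time course differed between the genes. From 24 h to 72 h in GDC-0623, 8 members were called higher and none lower, with Podn not called (all genes: 5.79% higher, 3.11% lower). The change was 4.62 ± 0.31 for Aspn, 3.08 ± 0.21 for Dcn, 3.02 ± 0.18 for Prelp and 2.72 ± 0.14 for Lum. It was 2.46 ± 0.20 for Fmod, 2.38 ± 0.16 for Bgn, 1.95 ± 0.13 for Ogn and 1.56 ± 0.09 for Omd. In the DMSO cultures 4 members were called higher and none lower over the same time (all genes: 8.41% higher, 5.14% lower). These were Ogn at 2.25 ± 0.14, Dcn at 1.15 ± 0.14, Bgn at 0.72 ± 0.10 and Lum at 0.72 ± 0.09. Omd at 0.33, Aspn at 0.34, Fmod at 0.23, Prelp at 0.30 and Podn at -0.13 were not called. Omd was called with the replicate number as a block and Prelp without DMSO replicate 3 at 24 h (0.41). Aspn, whose 3 DMSO arrays at 72 h lay above those at 24 h, was called under 6 alternatives. These were the filter on dim probe sets (0.34), the mean of the probe sets (0.27), repeated quantile normalization (0.35), the shift by hybridization controls (0.37), the trended robust prior (0.34) and the omission of DMSO replicate 1 at 72 h (0.40). Each comparison over time shares arrays with the drug comparisons at both times.

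The drug difference at 72 h exceeded that at 24 h for 7 members, and none had a smaller one by this call, against 1.62% and 1.46% of all genes. Aspn had an excess of 4.29 ± 0.37 and Prelp of 2.71 ± 0.23. Fmod had 2.23 ± 0.25, Lum 2.00 ± 0.18, Dcn 1.93 ± 0.28, Bgn 1.66 ± 0.21 and Omd 1.23 ± 0.19. Ogn (-0.30 ± 0.21) and Podn (0.11 ± 0.12) were not called. For Aspn and Lum both groups at 24 h and DMSO at 72 h lay in the background range. Their differences may be understated at both times, so their excess may be understated or overstated. For Omd, Fmod and Prelp the DMSO groups lay in that range at both times. The sizes are not ranked. Over the 12 arrays Dcn, Lum and Bgn followed each other most closely (Pearson r of 0.98 to 0.99), as did Omd and Fmod (0.99) and Aspn and Prelp (0.98). Ogn correlated at 0.96 with Omd and at 0.83 with Aspn, its other neighbour, and at 0.94 with Fmod on another chromosome. Podn lay between -0.08 and 0.24 against the others. The arrays form 4 groups, so these coefficients are a description of the group pattern.

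The 9 genes were represented by 20 probe sets. At 72 h, 19 of them were called higher and the other was that of Podn, and at 24 h 14 were called higher and none lower. The 6 Fmod probe sets gave differences between 0.67 and 2.80 at 24 h and between 2.12 and 5.02 at 72 h, and 5 of them, the brightest included, were of the kind that can share probes with other transcripts. Both Ogn probe sets gave 3.99 and 4.03 at 72 h and 4.0 and 4.33 at 24 h. Both Aspn probe sets gave 4.48 and 5.04 at 72 h. The second Prelp probe set gave 1.82 at 72 h and -0.02 at 24 h, where it was not called. For Bgn the 3 probe sets ranged from 0.96 to 2.11 at 72 h, and at 24 h only the brightest was called. The second Dcn probe set lay in the background range in all groups and gave 0.39 at 72 h and -0.13 at 24 h.

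**Figure D3:**
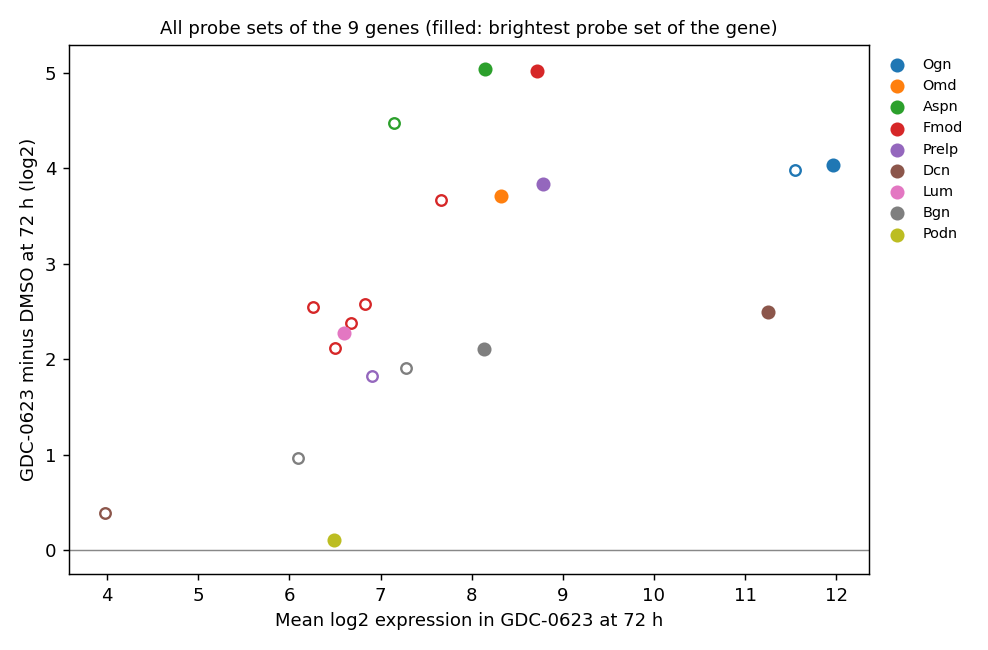
Difference between GDC-0623 and DMSO at 72 h against the mean log2 expression in GDC-0623 at 72 h, for the 20 probe sets of the 9 genes, with the brightest of each gene filled. All 20 probe sets lie above 0, from 0.11 for Podn, which was not called, to 5.04 for Aspn. The dim Dcn probe set lies at 0.39.

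To see whether the difference reached beyond the 9 genes, the 5 nearest measured genes on either side of each locus were compared. Their order is that of GRCm38.p6. They include Kera, Epyc, Optc and Ecm2, which also belong to the SLRP family. Of these 50 neighbours, 7 were higher and 7 lower at 24 h, and 6 were higher and 10 lower at 72 h. The background over all genes was 13.3% higher and 8.23% lower at 24 h and 13.8% higher and 12.4% lower at 72 h. Their differences ranged from -1.22 to 0.68 at 24 h and from -1.60 to 0.95 at 72 h. At 72 h no neighbour reached the 2.11 of Bgn, the smallest called member, whereas at 24 h Cenpp (0.68) exceeded the called members Dcn (0.56) and Bgn (0.45). The sizes of the members were known when they were chosen. With the replicate number as a block, 4 neighbours were higher at 24 h. Without any 1 of the 3 DMSO arrays or without GDC-0623 replicate 1, 3 were higher at 24 h. The lower count at 24 h was 4 without replicate 1 or 3 of DMSO or replicate 1 of GDC-0623, and 3 without GDC-0623 replicate 2. At 72 h it was 6 without DMSO replicate 1 and 5 without DMSO replicate 3.

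Around Ogn, Omd and Aspn, 3 of 10 neighbours were higher at either time, 2 were lower at 24 h and 1 at 72 h. Cenpp, which encodes a centromere protein and overlaps the SLRP genes, averaged 8.04 ± 0.03 in GDC-0623 and 7.35 ± 0.06 in DMSO at 24 h (SD, n = 3 each). The difference was 0.68 ± 0.07 (adjusted p = 1.72e-04 by limma), and at 72 h it was 0.55 ± 0.10 (adjusted p = 0.0044). Fbxw17 was higher by 0.41 at 24 h and 0.65 at 72 h, and Bicd2, a dynein adaptor, by 0.31 and 0.35. Iars, an isoleucyl-tRNA synthetase, was lower, at -0.27 and -0.53, and Nol8 was lower at 24 h only by this call, at -0.44. Ecm2, a leucine-rich repeat gene beside Aspn, lay in the background range and was not called. Beside Fmod and Prelp, none of 10 neighbours was called by limma at 24 h (1 was higher at an unadjusted p under 0.05), and 2 were lower at 72 h. These were Snrpe at -0.31 and Mybph at -0.33. Mybph lay in the background range, at 3.53 in GDC-0623 and 3.86 in DMSO. Optc, an SLRP neighbour of Fmod and Prelp, lay at 4.17 and 4.27 in GDC-0623 and DMSO at 24 h and was not called. Around Dcn and Lum, 1 neighbour was higher at 24 h and 1 at 72 h, and 1 and 2 were lower. The neighbour higher at 72 h was Kera (0.71), itself of the SLRP family and in the background range. Nudt4 was lower, at -0.49 at 24 h and -0.67 at 72 h. Next to Bgn, 2 were lower at either time, none was higher at 24 h, also at an unadjusted p under 0.05, and 1 was higher at 72 h. The ERK phosphatase gene Dusp9 was lower, at -0.94 at 24 h and -1.60 at 72 h, and Haus7 was higher by 0.95 at 72 h. Next to Podn, 3 neighbours were higher and 2 lower at 24 h, and 1 was higher and 3 lower at 72 h. Scp2, a sterol carrier protein, was higher by 0.35 and 0.49, and Cpt2 (0.26) and Zyg11b (0.23) were higher at 24 h. Lrp8, a lipoprotein and reelin receptor, was lower, at -1.22 and -1.21, as was Echdc2, at -0.25 and -0.75.

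**Figure D4:**
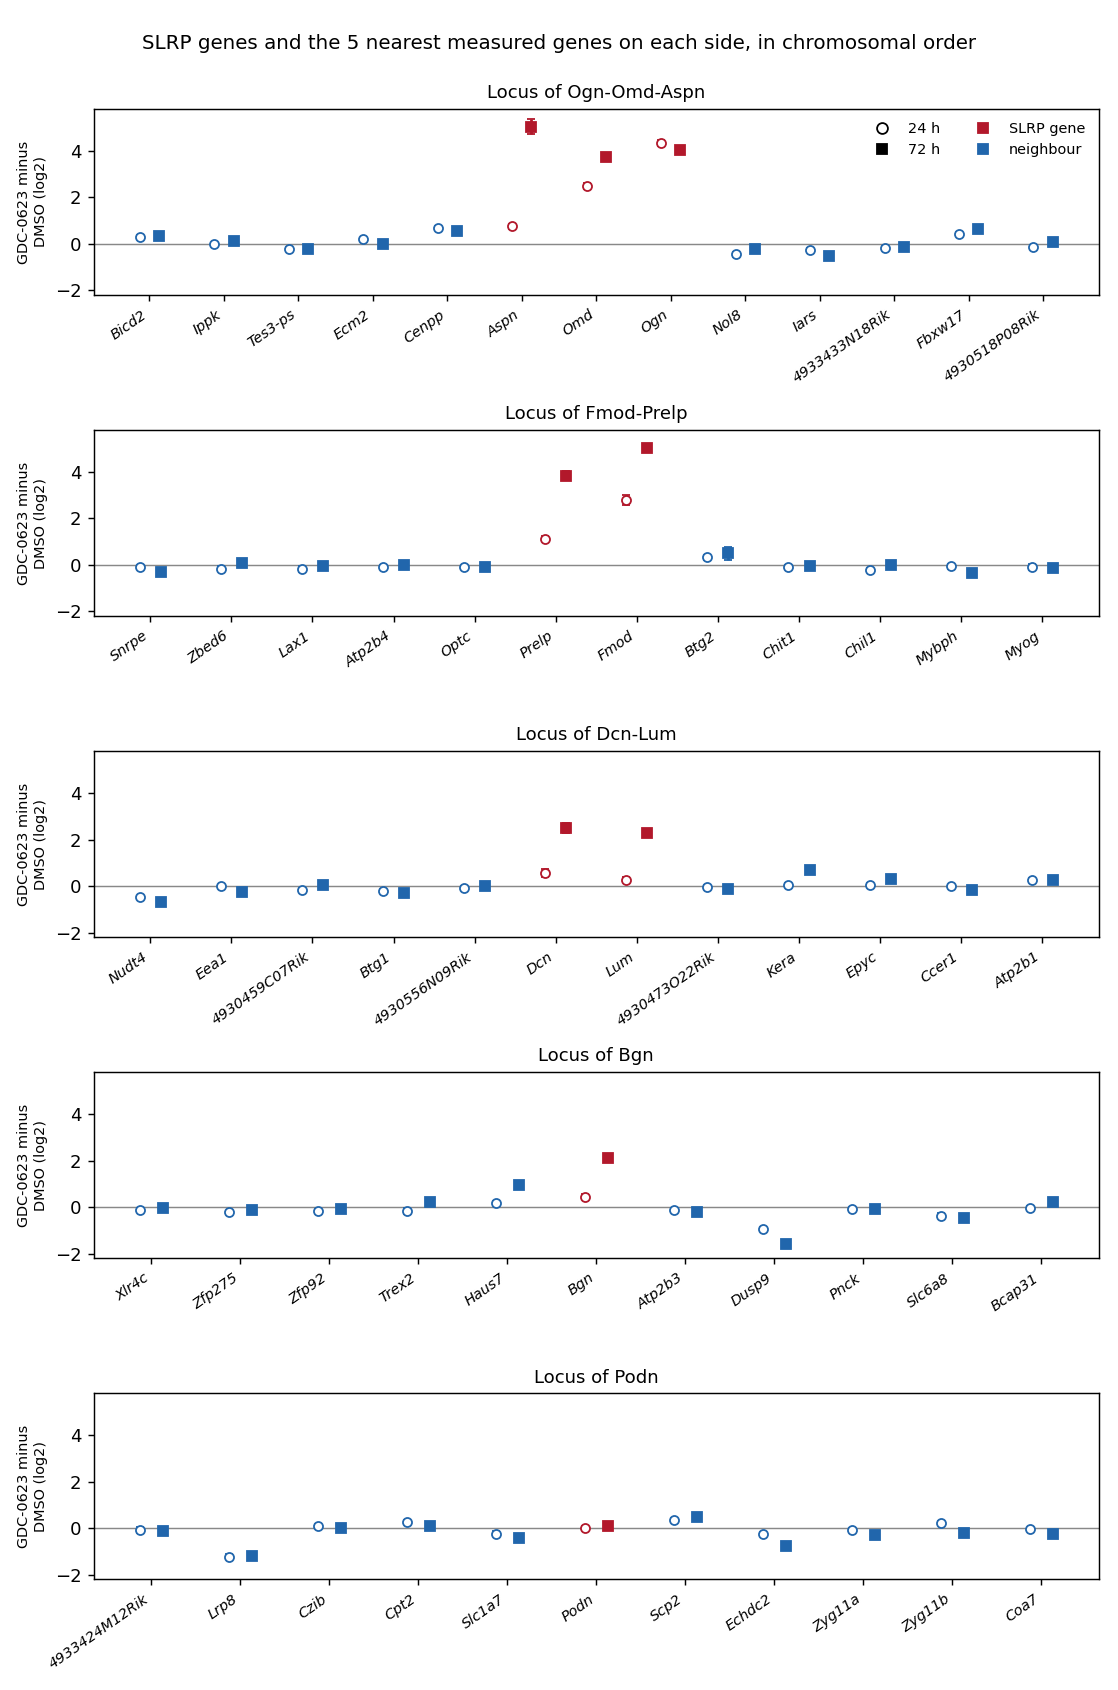
Difference between GDC-0623 and DMSO (log2, bars are standard errors of the fit) at 24 h (open circles) and 72 h (squares) for the 9 SLRP genes (red) and the 5 nearest measured genes on each side (blue) at 5 loci, in chromosomal order. Kera, Epyc, Optc and Ecm2, also of the SLRP family, are drawn as neighbours in blue. Cenpp, drawn beside Aspn, overlaps the SLRP genes. All neighbours lie between -1.60 and 0.95, below each of the 9 SLRP genes but Podn at 72 h.

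Other genes of the SLRP family were mostly in the background range. Of 9 listed, 7 were measured (Kera, Epyc, Optc, Chad, Chadl, Nyx and Ecm2), and none was called by limma at 24 h, where 1 was higher at an unadjusted p under 0.05. The share called higher over all genes was 13.3% at 24 h and 13.8% at 72 h. At 72 h Kera, the corneal keratan sulfate proteoglycan keratocan and a neighbour of Lum, was called higher with 3.62 in GDC-0623 and 2.91 in DMSO (0.71 ± 0.08, adjusted p = 4.24e-04 by limma), both in the background range. Without GDC-0623 replicate 3 a second gene was called, and after the filter on dim probe sets none was. Epyc at 3.05 and 2.74, Chad at 3.14 and 3.39, Nyx at 3.80 and 3.82, Optc at 4.32 and 4.39 and Ecm2 at 2.80 and 2.79 in GDC-0623 and DMSO at 72 h were in the background range and not called. Chadl, at 6.37 and 6.29, was above it and not called. The median difference of the 7 genes was 0.04 at 24 h and 0.01 at 72 h.

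Most collagens and fibril proteins that SLRPs bind were higher with GDC-0623. Of 20 measured, 13 were higher at 24 h and 13 at 72 h (all genes: 13.3% and 13.8% higher, 8.23% and 12.4% lower). The median difference was 0.68 and 1.03, against -0.03 over all genes. At 24 h none was lower, also at an unadjusted p under 0.05, and at 72 h Col6a3 was (-0.35). Dpt (dermatopontin, which binds decorin) averaged 8.51 ± 0.61 in GDC-0623 and 5.28 ± 0.20 in DMSO at 72 h (SD, n = 3 each), a difference of 3.22 ± 0.26 (adjusted p = 6.86e-05 by limma). The collagen VI chains Col6a1 and Col6a2, which biglycan and decorin bind, were higher by 1.82 and 1.73 at 24 h and by 1.86 and 1.98 at 72 h. Col11a1 was higher by 0.85 at 24 h and 2.42 at 72 h. Lox, the enzyme that cross-links collagen, was higher by 1.47 at 24 h and was not called at 72 h (0.62). Of the main fibril chains, Col1a2 was higher by 1.45 and 1.49 and Col3a1 by 1.00 and 1.04. Col1a1 lay at 5.09 in GDC-0623 and 4.18 in DMSO at 72 h, where it was called, and was not called at 24 h (0.02).

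Genes that build the glycosaminoglycan chains were called in both directions. Of 35 measured, 7 were higher and 2 lower at 24 h (all genes: 13.3% and 8.23%), and 6 were higher and 5 lower at 72 h (all genes: 13.8% and 12.4%). The median difference was 0.06 and -0.01. Papss2, which makes the sulfate donor, was higher by 1.74 ± 0.12 at 24 h and 1.84 ± 0.11 at 72 h. Chst12, a chondroitin sulfotransferase, was higher by 1.10 and 1.42, and Dsel, related to the epimerase that makes dermatan sulfate, by 0.52 and 0.72. Chst11, another chondroitin sulfotransferase, was lower, at -0.40 and -0.87. Pxylp1, a xylose phosphatase of the linker region, was higher by 0.67 and 0.55. The lower count was 1 at 24 h without replicate 1 or 2 of DMSO or replicate 1 of GDC-0623, and 3 at 72 h without DMSO replicate 2 or 3.

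Among 19 enzymes and cofactors that cut or process SLRPs, 5 were higher and 1 lower at 24 h (all genes: 13.3% and 8.23%). By 72 h 6 were higher and 1 lower (all genes: 13.8% and 12.4%). Adamts5 averaged 9.66 ± 0.64 in GDC-0623 and 6.31 ± 0.10 in DMSO at 72 h (SD, n = 3 each), a difference of 3.34 ± 0.26 (adjusted p = 5.98e-05 by limma), and it was higher by 2.35 at 24 h. Adamts1 was higher by 1.5 and 1.94, Pcolce by 0.82 and 1.27, and Mmp14, a membrane-bound collagenase, by 0.52 and 1.02 at 24 h and 72 h. Mmp3, a stromelysin, was lower at both times (-0.54 and -0.63), and at 24 h its call was lost on leaving out replicate 1 or 2 of either group. At 72 h, 2 genes were lower without GDC-0623 replicate 1. With the filter on dim probe sets 8 were higher at 24 h.

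A list of the TGF-beta group held growth factors that SLRPs bind, with receptors and modulators. Of its 20 measured genes, 7 were higher and 2 lower at either time. The shares over all genes were 13.3% higher and 8.23% lower at 24 h, and 13.8% and 12.4% at 72 h. Tgfb2 averaged 6.94 ± 0.36 in GDC-0623 and 4.24 ± 0.02 in DMSO at 24 h (SD, n = 3 each), a difference of 2.70 ± 0.15 (adjusted p = 9.77e-06 by limma). It was higher by 1.95 at 72 h. Smad6, an inhibitory Smad, was higher by 2.17 and 2.32 and the receptor gene Tgfbr2 by 1.07 and 1.4 at 24 h and 72 h. Tgfb3 was higher by 1.73 and 0.99, and Ltbp1, which stores latent TGF-beta in the matrix, was lower, at -0.69 and -1.13. The lower count was 1 without DMSO replicate 1 at 24 h and without DMSO replicate 2 or 3 at 72 h.

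Of 18 cell surface receptors that SLRPs bind, 5 were higher and 3 lower at 24 h (all genes: 13.3% and 8.23%). By 72 h 6 were higher and 2 lower (all genes: 13.8% and 12.4%). The Toll-like receptor genes, whose products bind biglycan and decorin, were among the higher ones. Tlr2 averaged 6.90 ± 0.27 in GDC-0623 and 5.29 ± 0.14 in DMSO at 72 h (SD, n = 3 each), a difference of 1.61 ± 0.14 (adjusted p = 9.72e-05 by limma). Tlr4 was higher by 0.69 at 24 h and 0.90 at 72 h, and P2rx4, an ATP-gated channel, by 0.45 and 0.54. The Toll-like co-receptor gene Cd14 was lower, at -0.35 and -0.57. Itga1, a collagen-binding integrin subunit, was higher by 0.49 and 1.47. The endocytic receptor gene Lrp1 was higher by 0.91 at 72 h and was not called at 24 h (0.20). Met, a receptor bound by decorin, was lower, at -0.87 at 24 h and -1.47 at 72 h. At 24 h the higher count was 3 with the replicate number as a block and without replicate 2 or 3 of DMSO or replicate 2 of GDC-0623, and the lower count was 1 without DMSO replicate 2.

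Other proteoglycan and link protein genes were also called in both directions. Of 31 measured, 5 were higher and 2 lower at 24 h (all genes: 13.3% and 8.23%), and 6 were higher and 3 lower at 72 h (all genes: 13.8% and 12.4%), with medians of -0.01 and 0.10. Vcan (versican) was higher by 0.88 at 24 h and 1.27 at 72 h, Gpc4 by 0.51 and 1.26, and Gpc1 by 0.81 and 0.75. Sdc2, a syndecan, was higher by 0.50 and 1.03. Col18a1, a collagen that carries heparan sulfate, was lower, at -0.73 at 24 h and -1.4 at 72 h. The lower count at 24 h was 0 without DMSO replicate 2 and 1 without replicate 1 or 3 of DMSO or replicate 1 or 2 of GDC-0623, and at 72 h it was 1 without DMSO replicate 1 or 3.

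**Figure D5:**
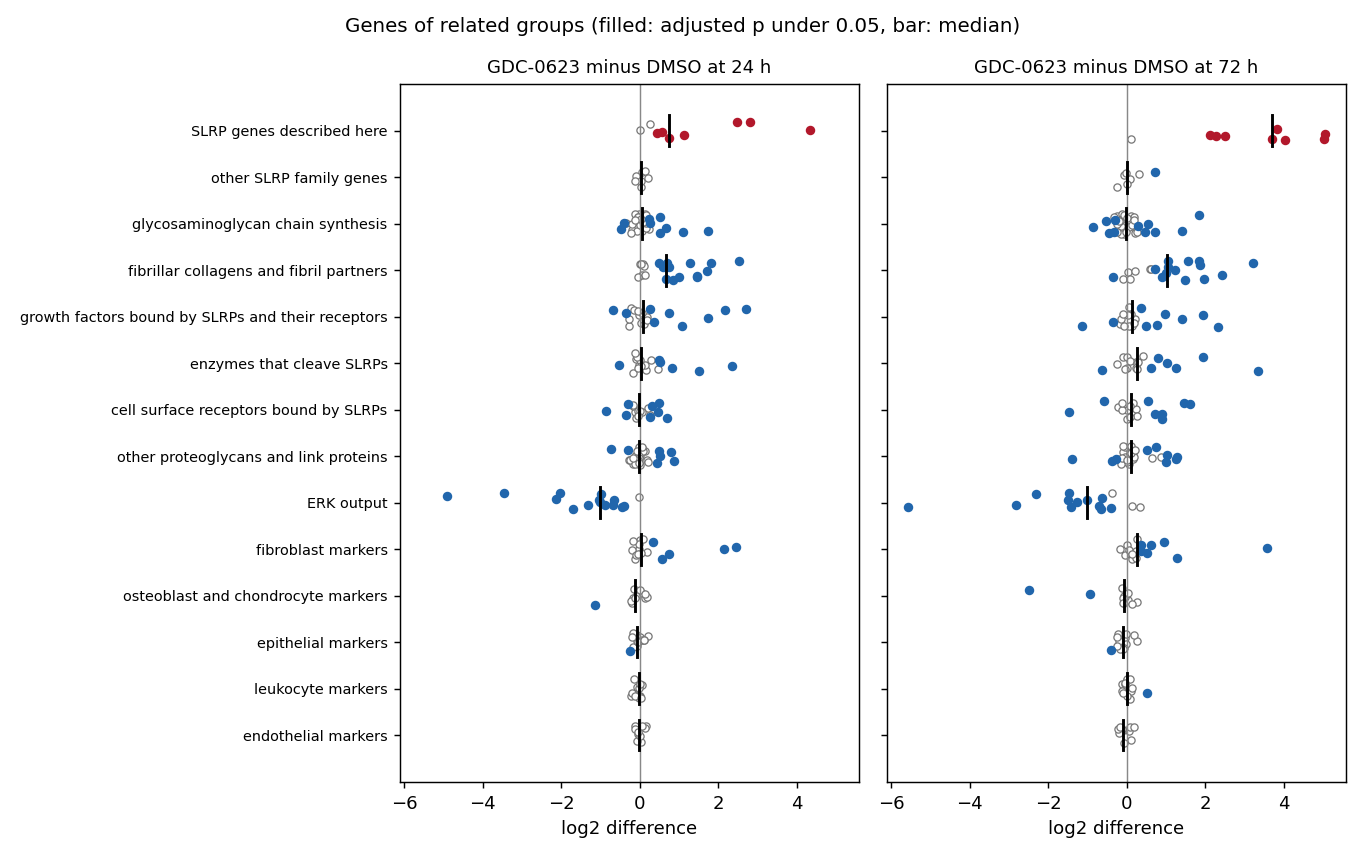
Difference between GDC-0623 and DMSO (log2) at 24 h and 72 h for each measured gene of the 9 SLRP genes (red) and of 13 related lists, with called genes filled and the median as a bar. The collagen list has medians of 0.68 and 1.03, the ERK output list -1.0 and -1.02, and the other lists lie within 0.26 of 0. The 9 SLRP genes were chosen with these differences known.

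SLRPs are typical products of fibroblasts, so markers of cell types were read in the same arrays. The fibroblast list held 16 genes, and none was lower at either time by limma or at an unadjusted p under 0.05. The list had 5 genes higher at 24 h and 7 at 72 h (all genes: 13.3% and 13.8% higher, 8.23% and 12.4% lower). Its mean level over the list ranged from 7.52 to 7.58 in GDC-0623 and from 7.11 to 7.24 in DMSO at 24 h, and from 7.73 to 7.91 in GDC-0623 and from 7.26 to 7.27 in DMSO at 72 h. The median difference of the 16 genes was 0.03 at 24 h, where 11 were not called, and 0.26 at 72 h, where 9 were not called. Acta2, smooth muscle actin, was higher by 2.45 ± 0.21 at 24 h and 3.58 ± 0.26 at 72 h (adjusted p = 7.95e-05 and 4.04e-05 by limma). Pdgfrb was higher by 2.15 and 1.29, Cd34 by 0.75 and 0.95, and Twist2 by 0.56 and 0.62. Vim lay between 13.57 and 13.77 in every group mean, while Thy1 and Fap lay in the background range in every group. In GDC-0623 and in DMSO at 72 h 7 of the 16 genes lay in the background range. The part of these markers in the SLRP values was not tested.

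Of the 14 epithelial markers, 12 lay in the background range in GDC-0623 and 10 in DMSO at 72 h, and 11 and 10 did so at 24 h. Cdh1 lay between 2.61 and 2.72 and Krt18 between 2.78 and 2.82 in the group means, both in the background range. Epcam lay above that range, between 5.34 and 5.62. 1 marker was lower at either time, Cldn3 at 24 h and Krt8 at 72 h. The shares over all genes were 13.3% higher and 8.23% lower at 24 h, and 13.8% and 12.4% at 72 h. The call of Cldn3 was lost without any 1 of the 6 arrays and with the replicate number as a block, and that of Krt8 without DMSO replicate 3. The leukocyte marker Ptprc lay between 2.75 and 2.91 and the endothelial marker Pecam1 between 3.02 and 3.25 in the group means. Of 13 leukocyte markers Lyz2 was called higher at 72 h, which was lost without DMSO replicate 2, and none of 10 endothelial markers was called by limma in either comparison (at an unadjusted p under 0.05, none at 24 h, 1 higher and 1 lower at 72 h). Bone and cartilage markers often accompany Ogn, Omd and Aspn in skeletal tissue. Of 12 measured, 8 lay in the background range in both groups at 24 h. At 72 h 9 did so in GDC-0623 and 8 in DMSO, so a rise of these could be missed. None of the 12 was called higher by limma at either time (all genes: 13.3% and 13.8%). At an unadjusted p under 0.05 none was higher at 24 h and 1 was at 72 h. Nothing is read from these counts. Without GDC-0623 replicate 1, 1 was called higher at 72 h. Phex was lower, at -1.13 at 24 h and -2.48 at 72 h, and Sox9 was lower at 72 h, at -0.94, and not called at 24 h (-0.17). Dmp1, Ibsp and Sost lay below 4 in every group.

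The genes whose pattern over the 12 arrays was most like that of each SLRP gene were sought among 9475 other genes with a highest group mean of at least 6. For Ogn these were Tgm2, a transglutaminase that cross-links matrix proteins, Col6a1 and Kmt2e (Pearson r of 0.99 each). For Omd they were Fbln5, an elastic fibre protein, the ephrin receptor gene Epha3 and Cav1 (0.99 each). For Aspn they were Gm4951, Abi3bp and Phf11d, and for Fmod R3hcc1, the tight junction gene Cldn1 and the immunoproteasome gene Psmb10. Prelp was followed by Postn, which encodes the matrix protein periostin, by the interferon regulatory factor gene Irf7 and by Tap1, the peptide transporter of MHC class I. Dcn was followed by Hpse (heparanase), H2-M3 and Cd274, which encodes PD-L1. Lum was followed by Apod, Zbp1 and Phf11d, and Bgn by Vegfc and the interferon-induced Dhx58 and Ifit2. For these 8 members r lay between 0.986 and 0.995. Podn had its closest genes at 0.84 (Mapk8ip2), 0.76 (Arf1) and 0.74 (Dok7). All coefficients follow the 4 groups and carry no p-value. Ranked by Spearman correlation, none of the 3 genes stayed among the closest 3 for the 8 called members, and 1 did for Podn.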

How the data were processed

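RNA of MC38 cells was labelled with biotin by a 3 prime kit and hybridised to Affymetrix mouse arrays. Expression was deposited on the log2 scale, after RMA according to the processing notes of the authors. The study's methods state RMA in Chipster for arrays of tumor pieces, and a version is not given in the sources used here. RMA corrects background and makes the distributions of all arrays equal by quantiles, which takes out any change common to most genes. The table held 45101 probe sets, and 64 controls were left out of the tests. Of the 45037 tested, 34945 had 1 gene symbol, 932 had several and 9160 were unnamed here. Symbols were updated by gene identifier for 34741 of them against GRCm38.p6. The probe set with the highest mean stood for each of 18193 genes.

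Groups were compared with limma 3.58.1 (lmFit, eBayes, two-sided) in R 4.3.3 on the 6 arrays concerned, and the difference of drug differences on all 12, with Benjamini-Hochberg adjustment over 45037 probe sets and a threshold of 0.05. Biological replicates are not described further, so p-values measure the spread between these arrays. Their number limits the precision. The members and gene lists were chosen with earlier results of these data known. Of a list or neighbourhood, up to 4 called genes with the largest difference, non-overlapping groups and a group mean of at least 6 were named, and all other SLRP genes. Genes named besides were chosen after their values were seen. Likeness named the 3 genes with the highest Pearson r over the arrays.

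Within each comparison of 2 groups, same-numbered arrays deviated together from their group means. The correlation of deviations lay between 0.12 and 0.37 for the 24 h comparison, 0.14 and 0.21 for 72 h, 0.23 and 0.39 for DMSO over time and 0.24 and 0.56 for GDC-0623 over time. Outside these comparisons, replicates 3 of DMSO at 72 h and of GDC-0623 at 24 h gave -0.03. The highest value of differently numbered arrays was 0.22, for GDC-0623 replicate 3 at 24 h and replicate 2 at 72 h. The main fits did not use the numbers, so the differences, calls and p-values given ignore this pairing unless the block is named. The fit with the replicate number as a block treats same-numbered arrays as pairs, and it is given where it changed a call. Alternatives were 1 fit over 12 arrays, the replicate block, a filter that kept probe sets reaching 5 on 3 or more arrays, quantile normalization run again, a shift by 18 hybridization control probe sets, the mean or the most variable of the probe sets of a gene, a minimum fold of 2, a prior variance with trend and robust fitting, other background thresholds, Spearman likeness and the omission of each array. The fits were tested on simulated data. Figures were drawn with matplotlib 3.10.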

Additional observations from a re-analysis of the deposited data

Results flagged for a closer look

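The difference between GDC-0623 and DMSO was larger at 72 h than at 24 h for 7 SLRP genes, by the contrast fitted over all 12 arrays. The excess on the log2 scale was 4.29 ± 0.37 for Aspn, 2.71 ± 0.23 for Prelp, 2.23 ± 0.25 for Fmod and 2.00 ± 0.18 for Lum. It was 1.93 ± 0.28 for Dcn, 1.66 ± 0.21 for Bgn and 1.23 ± 0.19 for Omd. Ogn and Podn were not called, at -0.30 ± 0.21 and 0.11 ± 0.12. Aspn and Lum lay in the background range in both groups at 24 h and in DMSO at 72 h, so their excess may be understated or overstated. The genes were chosen with these arrays known, so the values describe them. Groups of 3 arrays were too small to look for single outlying arrays by a fixed critical value.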

How the results depend on the processing

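At 72 h, 8 members were called higher under all alternatives run. At 24 h 7 were called, and 4 with 1 fit over 12 arrays, 3 with a minimum fold of 2 and 5 to 7 without 1 array. With a minimum fold of 2, the count of members was 1 for DMSO over time (4 otherwise) and 2 for the excess at 72 h (7 otherwise), and no neighbour was called higher or lower at 24 h or 72 h (0 in each case). No called member reversed. Neighbours called higher at 24 h (7) were 4 with the mean of the probe sets, with the most variable probe set and with the replicate block, and 3 to 5 without 1 array. Neighbours called lower at 24 h (7) were 3 after the shift by hybridization controls and 3 to 6 without 1 array. Those at 72 h (10 lower, 6 higher) were 5 to 9 lower and 5 to 8 higher without 1 array. The paired fit changed no call of members or counts of neighbours and lists by over 1.5 times other than those given in the report. The shift moved the share of higher genes among called genes to 33.3% for GDC-0623 over time (65.1% otherwise), to 80.6% for DMSO over time (62.1%) and to 35.4% for the excess at 72 h (52.6%). Signal limits the members in the background range, whose differences may be understated. Where this holds at both times, the excess at 72 h may be understated or overstated.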
